A study of Danio rerio with 4 samples.

Results

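The genes described here encode the molecules that display peptides to T cells and the proteins that prepare those peptides. They are *mhc1uba* and *mhc2dab*, *cd74a* and *cd74b*, *b2m*, *tap1*, *tap2a*, *psmb8a* and *psmb9a*, picked by symbol, and these 9 genes are 9 of the 32520 zebrafish genes in the count tables. They were picked with the DNK against CtrlK comparison already known, to tell which of them had counts in one group only and which in both. Their own levels are therefore a description, with no test.

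The libraries were made from *kdrl:EGFP* endothelial cells that had been sorted by flow cytometry from hearts of adult zebrafish at 7 days post-amputation (dpa) of the ventricle. DNK fish carried the transgenes ubi:loxp-DsRed-STOP-loxp-DN-xBrg1, joined by kdrl:CreER and kdrl:eGFP, and CtrlK fish, their siblings, had the same cassette with kdrl-eGFP and no CreER. Both groups were exposed to 4-hydroxytamoxifen (4-HT), with 3 days in the labels. The cassette holds *dn-xbrg1*, a dominant-negative form of *Xenopus* Brg1, the ATPase of a chromatin remodelling complex, behind a stop sequence. CreER, driven by the *kdrl* promoter, removes that sequence, so the cassette was switched on only in *kdrl*-expressing cells of DNK fish. There were 2 libraries in each group, DNK1, DNK2, CtrlK1 and CtrlK2, from pools of different fish. Since each pool held other fish, a difference in the alleles that the pooled fish carried cannot be told apart from the presence of active *dn-xbrg1*. All p-values measure the spread between these 4 libraries only. An age in months was not given in the sources used here.

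In class I presentation, the proteasome cuts cytosolic proteins, the TAP transporter carries the peptides into the endoplasmic reticulum, and chaperones load them onto a heavy chain that is paired with β2-microglobulin. Most nucleated cells do this. In class II presentation, an α and a β chain meet the invariant chain CD74, which holds the groove until proteases in the endosome have cut it away. In mammals class II molecules are chiefly found on dendritic cells, macrophages and B cells, and endothelial cells can carry them as well. Zebrafish have many heavy chain genes, named by lineage (U, Z and L), and the U lineage is encoded beside several antigen processing genes.

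The libraries held between 25189862 and 28770727 assigned reads, at which 3 counts, taken as the smallest detectable level, were 0.104 to 0.119 CPM (counts scaled to the library total). This floor and the intervals given below cover counting error only. Of all genes, 17151 had enough counts to be tested, all 9 described genes among them. *mhc1uba* and *mhc2dab* passed that filter through their DNK counts alone. Endothelial transcripts were present in every library, and markers of other cell types, cardiomyocytes among them, are given further below. *kdrl*, the receptor gene whose promoter marks the sorted cells, had 19725 and 19779 counts in DNK, against 22782 and 28519 in CtrlK. *cdh5*, which encodes the junction protein VE-cadherin, had 23986 and 18930 counts in DNK, against 21101 and 26099 in CtrlK. The level of the *Xenopus* transgene itself was not analysed here.

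Of the 9 genes, 2 were present in DNK only and 7 were shared by both groups. Presence in one group only meant 50 counts or more in each library of that group, with no library of the other group above 3. By that rule 0.571% of the 17151 tested genes were present in one group only, 0.268% in DNK and 0.303% in CtrlK. The first of the DNK genes was *mhc1uba* (ENSDARG00000075963), a class I heavy chain of the U lineage. It had 52443 and 50593 counts in DNK1 and DNK2, and 0 counts in both CtrlK libraries. The DNK level was 49864 ± 1375 normalized counts (SD, n = 2). Taking 3 counts in each CtrlK library as the floor, DNK was at least 15960-fold higher. Normalized counts here are counts brought to a common library size with the TMM method. Both DNK libraries were close to each other and the CtrlK libraries had no read on the gene.

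*mhc2dab* (ENSDARG00000079105), a class II β chain, was the other gene of this kind. It had 15906 and 13393 counts in DNK, against 1 and 0 in CtrlK. The mean was 14143 ± 970 normalized counts in DNK and 0.573 ± 0.810 in CtrlK (SD, n = 2 each). From 29299 counts against 1, the ratio of DNK to CtrlK was 27490 (95% exact interval 4934 to 1086000). This size rests on 1 read in CtrlK1: the fitted log2 fold change was 14.43 with all libraries, 16.85 without CtrlK1, when it depends on the prior count and is no bound, and 13.44 without CtrlK2. With 1 read in CtrlK1 the gene met the definition, but not a stricter one that asks for 0 counts in the other group. *tap2a*, with 247 and 66 counts in DNK and 611 and 1073 in CtrlK, was the shared gene with the fewest counts in any library. MHC genes are near-identical copies in places and only uniquely mapped reads were counted. A count on any one of them is therefore uncertain where reads of another copy, or of an allele unlike the reference, could be lost or assigned to it.

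**Figure D1:**
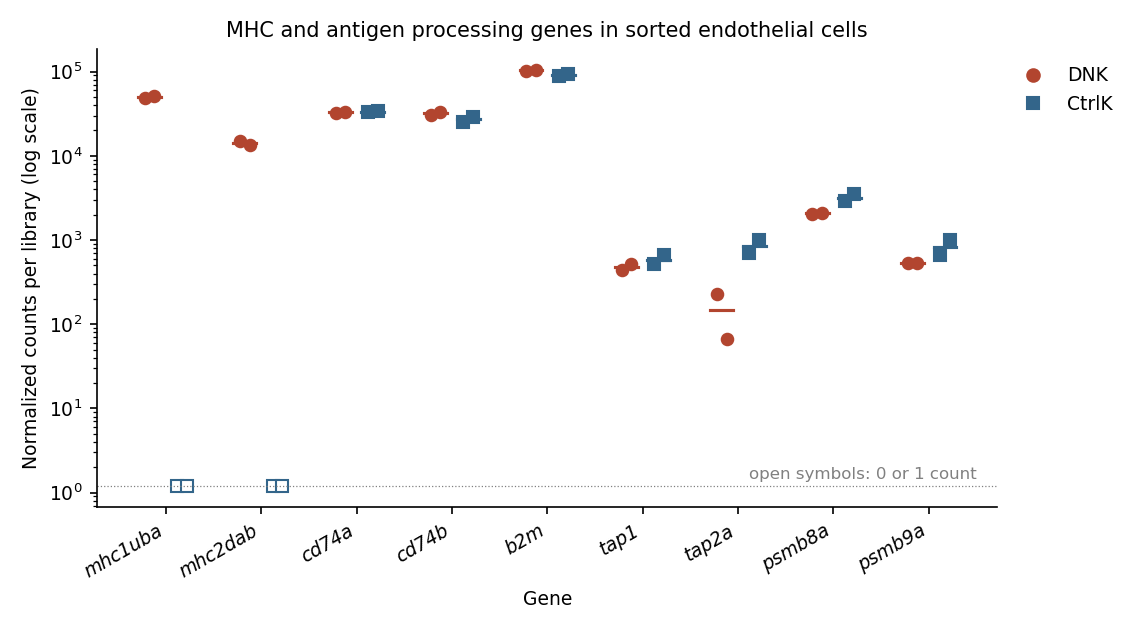
Normalized counts (log axis) of the 9 described genes in each library, with DNK as circles, CtrlK as squares and bars at the mean of the 2 libraries. Open symbols at the dotted line are libraries with 0 or 1 count: both CtrlK libraries for *mhc1uba* and *mhc2dab*, while the other 7 genes have at least 66 counts in every library.

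The partners of these chains were present in both groups. β2-microglobulin, the light chain that every classical class I heavy chain needs at the cell surface, is encoded by *b2m* (ENSDARG00000053136), which had 110115 and 103766 counts in DNK, against 76766 and 100582 in CtrlK. Its normalized level was 103462 ± 1137 in DNK and 91085 ± 4432 in CtrlK (SD, n = 2 each), with a log2 fold change of 0.18 (SE 0.06). The DNK libraries were both above the CtrlK libraries, by little.

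The invariant chain has a pair of genes in zebrafish. *cd74a* (ENSDARG00000009087) had 34961 and 32781 counts in DNK, against 28660 and 36187 in CtrlK. With 32766 ± 244 normalized counts in DNK and 33367 ± 751 in CtrlK (SD, n = 2 each), its log2 fold change was -0.03 (SE 0.06), and the sign turned with the scaling used, between -0.04 and 0.05. The groups overlapped for this gene. *cd74b* (ENSDARG00000036628) had 33018 and 32795 counts in DNK, against 21994 and 31052 in CtrlK, or 31868 ± 1535 normalized counts in DNK and 27143 ± 2750 in CtrlK. Its log2 fold change of 0.23 (SE 0.09) came with both DNK libraries above both CtrlK libraries. The invariant chain genes thus had counts of the same order in both groups, while the β chain *mhc2dab* was at 0 or 1 count in CtrlK.

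The peptide transporter is built from the products of *tap1* and *tap2*. *tap1* (ENSDARG00000079766) had 471 and 517 counts in DNK, against 450 and 699 in CtrlK. Its log2 fold change was -0.29 (SE 0.22), and the groups overlapped. *tap2a* (ENSDARG00000036787) had 148 ± 116 normalized counts in DNK and 853 ± 216 in CtrlK (SD, n = 2 each), from the counts given above. Both DNK libraries were below both CtrlK libraries, but DNK1 and DNK2 were far apart. The log2 fold change of -2.52 (SE 0.61) moved between -3.68 and -1.89 when one library was left out. The zebrafish copy *tap2t* had 689 and 645 counts in DNK, against 504 and 766 in CtrlK, and a log2 fold change of -0.01 (SE 0.20).

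*psmb8a* and *psmb9a* encode subunits that replace constitutive ones in the immunoproteasome, whose cleavage pattern favours peptides that bind class I. *psmb8a* (ENSDARG00000001303) had 2198 and 2084 counts in DNK, against 2534 and 3712 in CtrlK. The normalized level was 2072 ± 31.7 in DNK and 3190 ± 406 in CtrlK (SD, n = 2 each), with a log2 fold change of -0.62 (SE 0.13). *psmb9a* (ENSDARG00000000656) had 572 and 525 counts in DNK, against 575 and 1081 in CtrlK. Its normalized level was 530 ± 4.06 in DNK and 836 ± 250.2 in CtrlK, and its log2 fold change was -0.66 (SE 0.24). For both subunits the DNK libraries lay below the CtrlK libraries, and for *psmb9a* CtrlK1 and CtrlK2 were far apart.

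Across the 9 genes, both DNK libraries were above both CtrlK libraries for 4 and below for 3, and the groups overlapped for 2. Among all tested genes these shares were 26.9% above and 28.6% below, and 55.5% did not overlap. By edgeR's quasi-likelihood test with Benjamini-Hochberg adjustment at 0.05, 3 of the 9 passed, with *mhc1uba* and *mhc2dab* higher and *psmb8a* lower in DNK. That rate was 8.45% over the 17151 tested genes, with 4.22% higher and 4.23% lower. A log2 fold change of at least 1 in either direction was seen for 3 of the 9 and for 21.7% of all tested genes. Since this contrast was used to choose the 9 genes, nothing is read from these counts.

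The other class II genes did not follow a single direction. *mhc2daa* (ENSDARG00000031745), the α chain that stands next to *mhc2dab* in the row order of the count tables, had 16799 and 13803 counts in DNK, against 4086 and 6716 in CtrlK. It was higher in DNK by a log2 fold change of 1.43 (SE 0.15, adjusted p = 0.0024, edgeR quasi-likelihood test). In contrast to *mhc2dab*, it was well covered in both groups. A further set of MHC symbols was added after values had been seen and is given as a description. Of these, the β chain *mhc2dhb* (ENSDARG00000116524) had 6023 and 5899 counts in DNK, against 15505 and 22047 in CtrlK, with a log2 fold change of -1.73 (SE 0.10). *mhc2dgb* (ENSDARG00000104635) had 1452 and 1782 counts in DNK, against 4531 and 6503 in CtrlK, with a log2 fold change of -1.84 (SE 0.16). For both of these β chains every DNK library was below every CtrlK library.

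Another pair of class II genes was lower in DNK, again as a description. *mhc2dga*, an α chain, had 412 and 870 counts in DNK, against 1735 and 2003 in CtrlK, with a log2 fold change of -1.62 (SE 0.40). *mhc2d4b* had 464 and 663 counts in DNK, against 755 and 1106 in CtrlK, with a log2 fold change of -0.79. In both the DNK libraries were below the CtrlK libraries, and for *mhc2dga* DNK1 and DNK2 were far apart. *mhc2bl* went the way of *mhc2dab* at a much lower level, with 48 and 55 counts in DNK and 0 in both CtrlK libraries. Taking 3 counts in each CtrlK library as the floor, DNK was at least 16.0-fold higher. The gene passed the filter through its DNK counts alone. With 48 counts in DNK1 it fell just short of the definition of presence in one group only. Of the 16 *mhc2* symbols matched, 6 had no counts in any library.

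**Figure D2:**
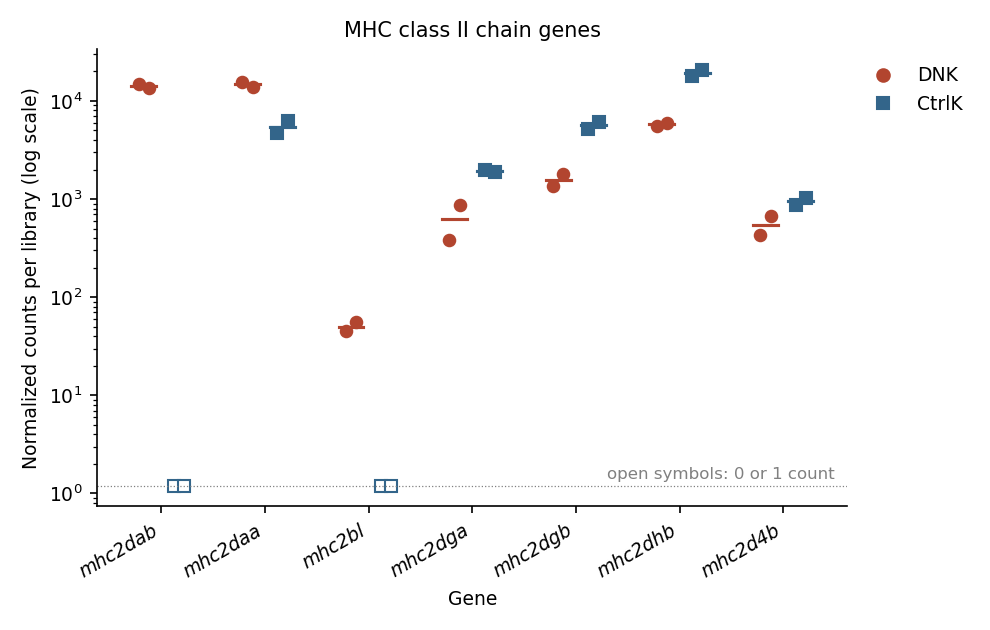
Normalized counts (log axis) per library of the 7 MHC class II genes with enough counts to be tested, with DNK as circles, CtrlK as squares and bars at the mean of the 2 libraries. Both DNK libraries lie above both CtrlK libraries for *mhc2dab*, *mhc2daa* and *mhc2bl* and below them for *mhc2dga*, *mhc2dgb*, *mhc2dhb* and *mhc2d4b*, and open symbols are libraries with 0 or 1 count.

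Taken over the whole class II family, the groups were much closer than for single genes. The 16 *mhc2* symbols summed to 38321 and 36660 normalized counts in DNK, against 30491 and 35948 in CtrlK. Without *mhc2dab* the sums were 23493 and 23202 in DNK, against 30489 and 35948 in CtrlK, so that the order of the groups was reversed. The order depended on *mhc2daa* as well, which had 15661 and 13869 normalized counts in DNK, against 4681 and 6291 in CtrlK. What differed was the make-up. *mhc2dab* took 38.7% and 36.7% of the class II reads in DNK, against 0.00376% and 0% in CtrlK. *mhc2daa* took the largest share in DNK, 40.87% and 37.83%, against 15.35% and 17.5% in CtrlK. *mhc2dhb* took 14.7% and 16.2% in DNK, against 58.3% and 57.5% in CtrlK, and *mhc2dgb* took 3.53% and 4.88% in DNK, against 17.03% and 16.95% in CtrlK. These are shares of reads, not corrected for gene length. The replicates of each group were close in these shares for *mhc2dab* and *mhc2dhb*. DNK1 and DNK2 were further apart for *mhc2dgb*, and for *mhc2dga* with 1.0% and 2.4%.

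Most reads on the class I family also fell on few genes. *mhc1zba*, a heavy chain of the Z lineage, had 131364 and 126607 counts in DNK, against 95740 and 119746 in CtrlK, a log2 fold change of 0.17 (SE 0.05) that did not pass the test (adjusted p = 0.088, edgeR quasi-likelihood test). It took 69.7% and 69.8% of all class I reads in DNK, against 96.2% and 96.1% in CtrlK. *mhc1uba* made up 27.8% and 27.9% in DNK and 0% in CtrlK. Summed over 21 *mhc1* symbols, the normalized counts were 175752 and 182232 in DNK, against 114022 and 116763 in CtrlK. Without *mhc1uba* they were 126860 and 131395 in DNK, against 114022 and 116763 in CtrlK, and the DNK libraries remained above.

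Apart from *mhc1uba*, 12 heavy chains of the class I list were tested. Of these, 5 fold changes were above 0 and 7 below, with a median log2 fold change of -0.39, and 1 passed. That was *mhc1zka* (ENSDARG00000104293), of the Z lineage, which had 17 and 7 counts in DNK, against 463 and 685 in CtrlK, and fell by 5.65 on the log2 scale (SE 0.44, adjusted p = 0.00073, edgeR quasi-likelihood test). With 17 and 7 counts in DNK, *mhc1zka* passed the filter through its CtrlK counts. None of the 12 was called higher. At an unadjusted p under 0.05 there were 3 higher and 2 lower, and DESeq2 called 2 higher and 1 lower. *mhc1uca*, another U lineage chain, was low in all libraries, with 47 and 72 counts in DNK and 11 and 30 in CtrlK. No other heavy chain was present in one group only.

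Beyond the heavy chains, the rest of the pathway was tested from 7 lists of genes, with the 9 described genes left out. Of 121 symbols, 78 were matched to a row and 61 were tested, of which 6 were higher and 3 were lower in DNK and 52 did not pass. The median log2 fold change over the 61 was 0.01, against -0.02 over all tested genes, where 8.45% passed. The calls of each list that follow stand beside this share. Some symbols, *calr* among them, were matched by the study's own list of genes that differed between the groups. Such a match can favour called genes, so nothing is read from these shares. DESeq2 called 13 higher and 5 lower in the same lists, and scaling by the total count alone gave 8 higher and 2 lower.

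Genes of class I peptide transport and loading held 3 of the 6 higher calls, out of 11 tested, and 0 were lower (1 lower at an unadjusted p under 0.05, and 1 lower by DESeq2). *tapbp.1* (ENSDARG00000079402) encodes tapasin, which holds the heavy chain at the transporter. It had 2524 and 2781 counts in DNK, against 611 and 860 in CtrlK, a log2 fold change of 1.77 (SE 0.15, adjusted p = 0.0011). Its neighbour copy *tapbp.2* had 678 and 709 counts in DNK, against 885 and 1171 in CtrlK, with a log2 fold change of -0.65 (adjusted p = 0.060). The copies stood on opposite sides of 0, only the first past the threshold, and their reads may be confused with each other. *calr3a* and *calr*, which encode forms of calreticulin, a chaperone of glycoproteins in general, were higher by 0.97 (SE 0.13, adjusted p = 0.0065) and 0.91 (SE 0.16, adjusted p = 0.019). *calr* did not pass without DNK2, CtrlK1 or CtrlK2, with adjusted p of 0.091, 0.053 and 0.082. *b2ml*, a β2-microglobulin-like gene, had 77757 and 74500 counts in DNK, against 56734 and 69357 in CtrlK, and its log2 fold change of 0.18 did not pass (adjusted p = 0.089). All adjusted p-values of this paragraph are from the edgeR quasi-likelihood test.

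Calls among proteasome genes stand beside the 8.45% of all tested genes that were called. Of 6 tested genes of the immunoproteasome and its activator, 1 was lower and 0 were higher, with 0 higher at an unadjusted p under 0.05 and 0 by DESeq2. The lower gene was *psmb12* (ENSDARG00000031885), a proteasome β subunit gene placed between *psmb8a* and *psmb9a* in the reference gene order, with 889 and 838 counts in DNK, against 1545 and 1952 in CtrlK. It fell by 1.11 on the log2 scale (SE 0.13, adjusted p = 0.0038, edgeR quasi-likelihood test). *psmb13a*, on the other side of *psmb8a*, had 1016 and 995 counts in DNK, against 846 and 948 in CtrlK, with a log2 fold change of 0.07. *psmb10*, the third inducible catalytic subunit in mammals, had a log2 fold change of -0.14, and the activator genes *psme1* and *psme2* had -0.12 and -0.15. The constitutive catalytic subunits *psmb5*, *psmb6* and *psmb7* had log2 fold changes of 0.09, 0.15 and -0.24. None of these 3 passed the edgeR test, 0 were under an unadjusted p of 0.05 and DESeq2 called 0.

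In the endosomal branch, 1 of 8 tested proteases was lower in DNK and 0 were higher, with 1 higher at an unadjusted p under 0.05 and 1 by DESeq2. The lower gene was *ctss2.2* (ENSDARG00000013771), a cathepsin S copy, and cathepsin S removes the invariant chain from class II in mammals. It had 2475 and 1754 counts in DNK, against 2869 and 3598 in CtrlK, a log2 fold change of -0.71 (SE 0.15, adjusted p = 0.032, edgeR quasi-likelihood test). The call was lost without DNK2, CtrlK1 or CtrlK2 (adjusted p = 0.11, 0.093 and 0.11) and with scaling by the total count (0.056). Its copy *ctss2.1* had 5415 and 6034 counts in DNK, against 5541 and 4906 in CtrlK, and a log2 fold change of 0.02.

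Of the transcriptional regulators, 2 of 20 tested were higher and 0 lower in DNK, with 2 lower at an unadjusted p under 0.05 and 1 lower by DESeq2. Of these, *irf1b*, a copy of the interferon-induced factor IRF1, had 12756 and 12344 counts in DNK, against 7958 and 10096 in CtrlK, and a log2 fold change of 0.39 (SE 0.08, adjusted p = 0.029, edgeR quasi-likelihood test), which did not pass when any one library was left out (adjusted p = 0.066 to 0.14). The main activators of these families were not called. *nlrc5*, the class I transactivator in mammals, had 351 and 179 counts in DNK, against 205 and 287 in CtrlK. *ciita*, the class II transactivator, had 100 and 108 counts in DNK, against 136 and 189 in CtrlK, with a log2 fold change of -0.72 (adjusted p = 0.31).

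**Figure D3:**
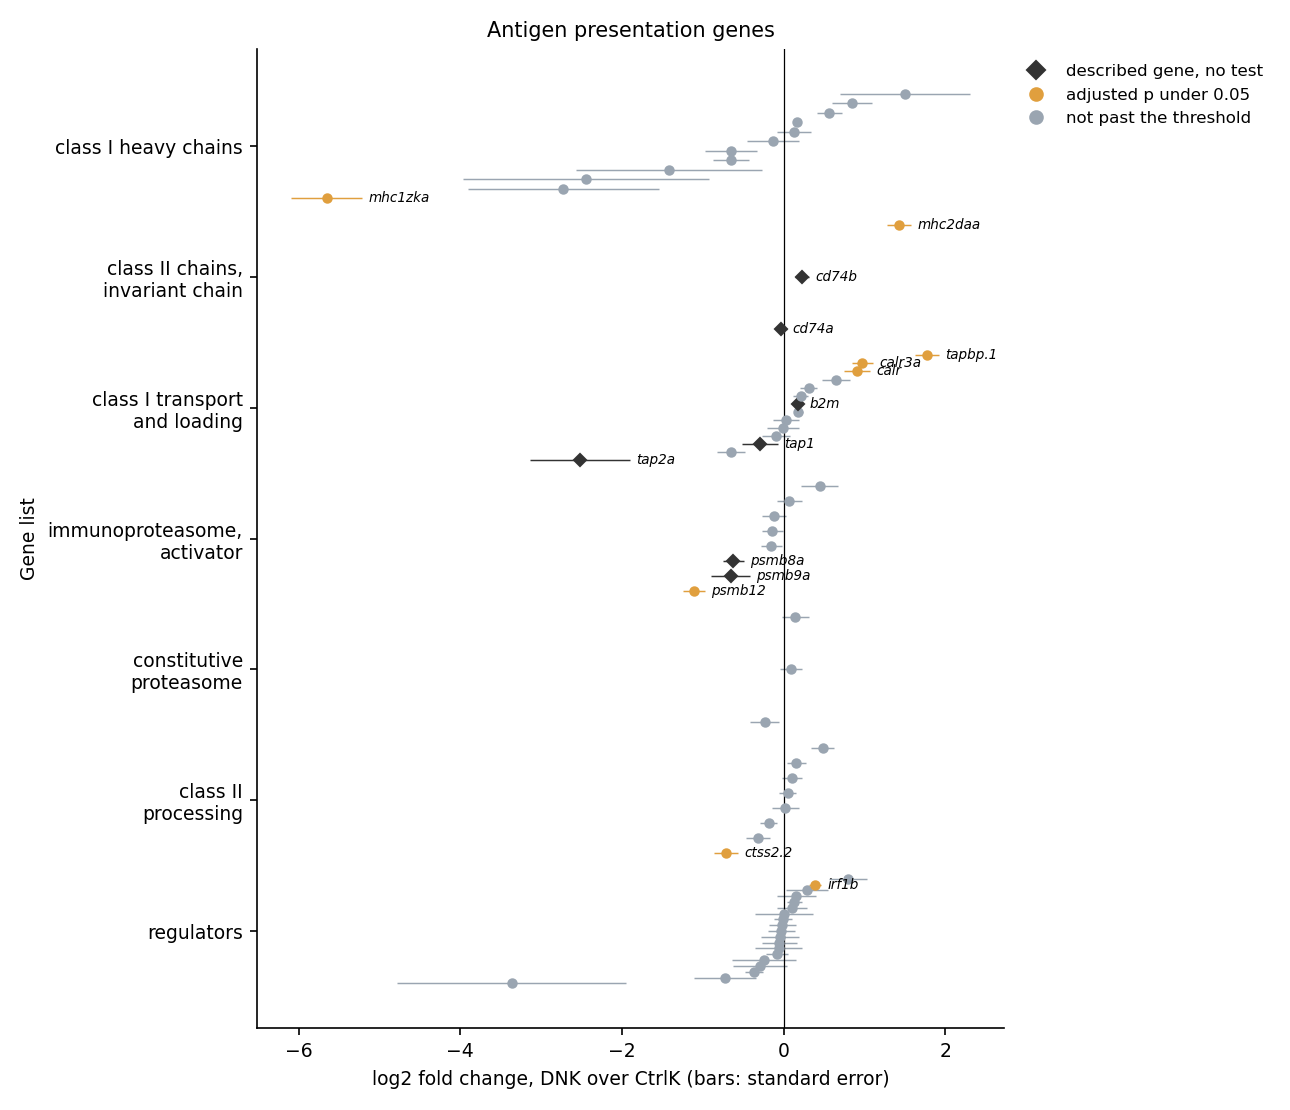
log2 fold change of DNK over CtrlK with its standard error for tested genes of the 7 antigen presentation lists, 1 row of points per list, leaving out *mhc1uba*, *mhc2dab* and a gene not reported here. Diamonds are described genes without a test, and the named circles are genes past an adjusted p of 0.05, with *tapbp.1* at 1.77 and *mhc1zka* at -5.65 farthest to each side. *mhc1zka* passed the filter through its CtrlK counts.

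Several of the described genes are near each other. In the gene order of the RefSeq annotation, *psmb8a*, *psmb9a* and *tap2a* stand within 5 genes of *mhc1uba*, with *psmb13a* and *psmb12* among them and *tapbp.1* and *tapbp.2* on the other side. Up to 10 genes on each side of these 4 gave 22 neighbours, of which 19 were tested and 1 was higher and 2 were lower, or 15.8%, beside 8.45% of all tested genes. The calls were *tapbp.1*, *psmb12* and *flot1a*, which encodes the membrane scaffold protein flotillin. *flot1a* (ENSDARG00000001710) had 54 and 33 counts in DNK, against 446 and 640 in CtrlK, a log2 fold change of -3.73 (SE 0.34, adjusted p = 0.0012, edgeR quasi-likelihood test). All 3 calls held without each library in turn. Genes called higher, genes called lower and genes past no threshold were interspersed along this stretch.

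**Figure D4:**
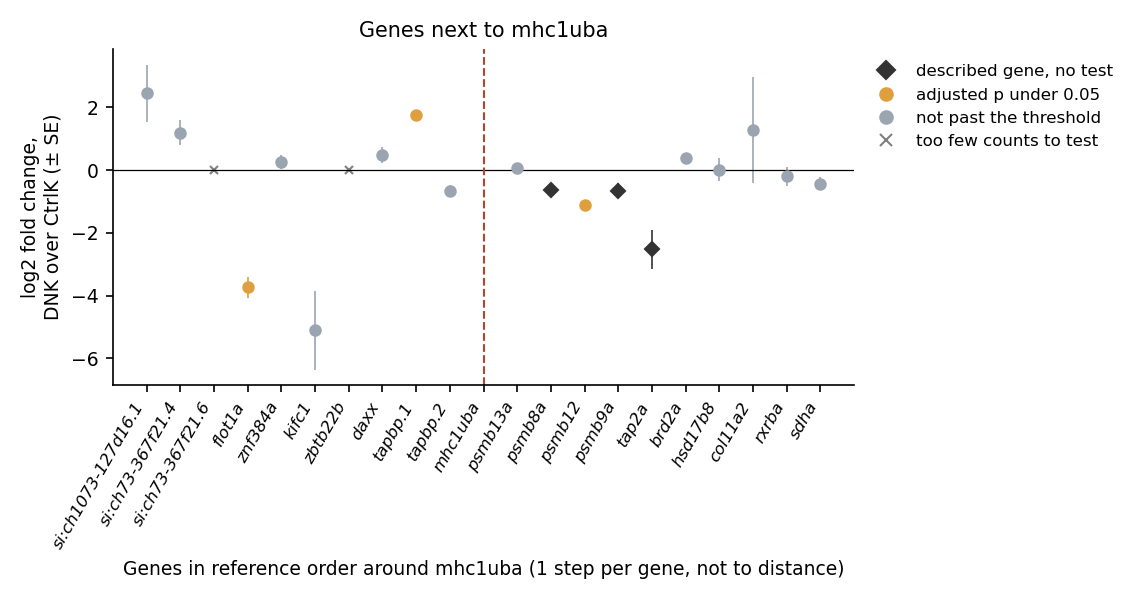
log2 fold change of DNK over CtrlK with its standard error for the genes around *mhc1uba* (dashed line) in the reference gene order, 1 step per gene. *tapbp.1* is higher, *flot1a* and *psmb12* are lower, diamonds are described genes without a test, and crosses are genes with too few counts to test.

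Around all described genes with a place in that annotation there were 102 neighbours, 67 tested, 4 higher and 4 lower (11.9%). The count fell to 4 without DNK2, CtrlK1 or CtrlK2. Scaling by the total count gave 5 higher and 3 lower. Apart from the 3 just named, the calls were *notchl* and *septin7b* by *tap1*, *gstp1.2* by *cd74a*, *rps14* by *cd74b* and *mgst1.2* by *b2m*. *notchl* (ENSDARG00000088308) had 197 and 273 counts in DNK, against 891 and 1650 in CtrlK, with a log2 fold change of -2.49 (SE 0.29, adjusted p = 0.0035, edgeR quasi-likelihood test). The other 4 lay between -0.33 and 0.48 on the log2 scale, and each lost its call without at least one library. *mhc2dab* has no entry in the RefSeq table used. By the row order of the count tables, chosen after the data had been seen, 9 of its 20 neighbours were tested. Of these, 2 were higher and 2 lower (44.4%), beside 8.45% of all tested genes. The called genes were the class II genes *mhc2daa*, *mhc2bl*, *mhc2dgb* and *mhc2dhb*. All but *mhc2daa* had been added as a description after values had been seen, so nothing is read from this share. *mhc2bl* also passed the filter through its DNK counts alone.

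Over the 4 libraries, the gene whose pattern was nearest to *mhc1uba* was *mhc2dab*, and the reverse held as well. Likeness was measured as the Euclidean distance of log2 CPM, each gene centred on its mean, and was 2.2 between this pair. Next for both came *kcng1*, with 1872 and 1827 counts in DNK and 0 in both CtrlK libraries, at distances of 4.80 from *mhc1uba* and 2.70 from *mhc2dab*. It encodes a modifier subunit of voltage-gated potassium channels. *clec3bb*, with 885 and 865 counts in DNK and 0 in CtrlK, came after it at 5.88 and 3.76. With 4 libraries such a distance mostly reflects the size of the gap between the groups.

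Because leukocytes carry much class II, their markers are given beside these levels. Over all tested genes 8.45% were called, 4.22% higher and 4.23% lower, and the calls of each marker list stand beside these shares. Pan-leukocyte markers were 0 higher and 6 lower in DNK of 10 tested, with 0 higher at an unadjusted p under 0.05 and 0 by DESeq2, and their summed level was 14010 and 13837 normalized counts in DNK, against 22612 and 20287 in CtrlK. *ptprc*, the leukocyte phosphatase gene CD45, had 521 and 341 counts in DNK, against 1075 and 911 in CtrlK, a log2 fold change of -1.33 (SE 0.26, adjusted p = 0.026, edgeR quasi-likelihood test). In bulk libraries fewer leukocytes and less RNA per leukocyte cannot be told apart. The class II genes *mhc2dab* and *mhc2daa* were thus higher in the libraries with lower pan-leukocyte markers, and *mhc2dhb* and *mhc2dgb* lower. The part of these cells in the class II and immunoproteasome levels was not tested.

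Macrophage and dendritic cell markers gave 0 calls of 11 tested, with 1 at an unadjusted p under 0.05 and 1 by DESeq2. Their summed level was 33617 and 20137 normalized counts in DNK, against 23068 and 25917 in CtrlK. *mpeg1.1*, the macrophage perforin gene, had 2223 and 2174 counts in DNK, against 2419 and 3467 in CtrlK (log2 fold change -0.50, adjusted p = 0.058, edgeR quasi-likelihood test), so macrophage transcripts were present in every library. Of the 11, 5 had a fold change above 0 and 6 below. *marco*, a macrophage scavenger receptor gene, had 11090 and 5036 counts in DNK, against 3416 and 4394 in CtrlK, with a log2 fold change of 0.94 that did not pass (adjusted p = 0.28). Of B cell markers 0 of 3 tested were called, with 1 at an unadjusted p under 0.05 and 1 by DESeq2, and they summed to 504 and 326 normalized counts in DNK, against 546 and 712 in CtrlK. *cd79a*, of the B cell receptor complex, had 28 and 32 counts in DNK, against 85 and 64 in CtrlK, while *cd79b* and *pax5* were at 0 in all libraries.

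T and NK cell markers were 1 higher (*zap70*) and 1 lower (*cd4-1*) of 7 tested, with 1 higher and 3 lower at an unadjusted p under 0.05. *zap70* had 21 and 85 counts in DNK and 0 in both CtrlK libraries, so it passed the filter through its DNK counts alone. *cd4-1* had 3 and 10 counts in DNK, against 122 and 71 in CtrlK, and passed the filter through its CtrlK counts. The list summed to 158 and 166 normalized counts in DNK, against 300 and 112 in CtrlK. *lck*, a T cell kinase gene, had 24 and 3 counts in DNK, against 13 and 0 in CtrlK. Neutrophil markers were 2 lower and 0 higher of 5 (0 higher by DESeq2 and at an unadjusted p under 0.05). The lower ones were *mpx* and *cpa5*, at 0 in both DNK libraries, which passed the filter through their CtrlK counts alone. The list summed to 2719 and 2439 in DNK, against 3321 and 2755 in CtrlK. Nearly all of this sum was *nccrp1*, with 2713 and 2365 normalized counts in DNK, against 3041 and 2550 in CtrlK. *nccrp1* was not called (log2 fold change -0.14), so the sum says little about the other genes of the list. The endothelial markers were 2 higher and 3 lower of 11 tested, with 2 higher and 6 lower at an unadjusted p under 0.05. DESeq2 called 2 higher and 5 lower, and 3 fold changes were above 0 and 8 below. Their sum was 167576 and 171101 in DNK, against 174749 and 182889 in CtrlK. *kdrl* was lower at a log2 fold change of -0.47 (SE 0.07, adjusted p = 0.011, edgeR quasi-likelihood test), and *cdh5* was not called at -0.23. The called higher genes were *vwf* and *flt1*, with log2 fold changes of 0.76 (adjusted p = 0.0011) and 0.54 (adjusted p = 0.0069), and the other lower ones were *pecam1* and *egfl7*, at -0.66 and -0.35. *plvapa*, of the fenestral diaphragm, had 452 and 156 counts in DNK, against 5937 and 10022 in CtrlK, and did not pass (log2 fold change -4.80, SE 0.69, adjusted p = 0.067). Cardiomyocyte markers summed to 34764 and 3841 in DNK, against 428823 and 127010 in CtrlK, with 0 of 6 tested called, 0 at an unadjusted p under 0.05 and 3 lower by DESeq2. In CtrlK1 the cardiomyocyte sum was above the endothelial sum. Erythrocyte and thrombocyte markers were 3 lower (*hbaa2*, *itga2b*, *gp1bb*) and 0 higher of 6 tested, with 0 higher at an unadjusted p under 0.05 and 0 by DESeq2, and summed to 127 and 413 in DNK, against 5488 and 1684 in CtrlK. Epicardial and fibroblast markers were 3 higher of 9 tested and 0 lower (1 lower at an unadjusted p under 0.05 and 2 by DESeq2), and summed to 82270 and 88938 in DNK, against 60842 and 65765 in CtrlK. The higher ones were *pdgfra*, *col1a1a* and *col1a2*, with log2 fold changes of 1.34, 0.79 and 0.70. The list as a whole did not go one way, with 4 fold changes above 0, 5 below and a median of -0.02. Both DNK libraries were above both CtrlK libraries for 3 of its genes and below for 4. The part of these other cells in the levels described here was not tested. Over the 9 marker lists, 21 of 68 tested genes were called, 6 higher and 15 lower. Some markers, *zap70*, *mpx* and *cpa5* among them, were matched by the study's symbol list. The paper cites that list for its genes that differed between the groups. Such a match can favour called genes, so nothing is read from this share beside the 8.45% of all tested genes.

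**Figure D5:**
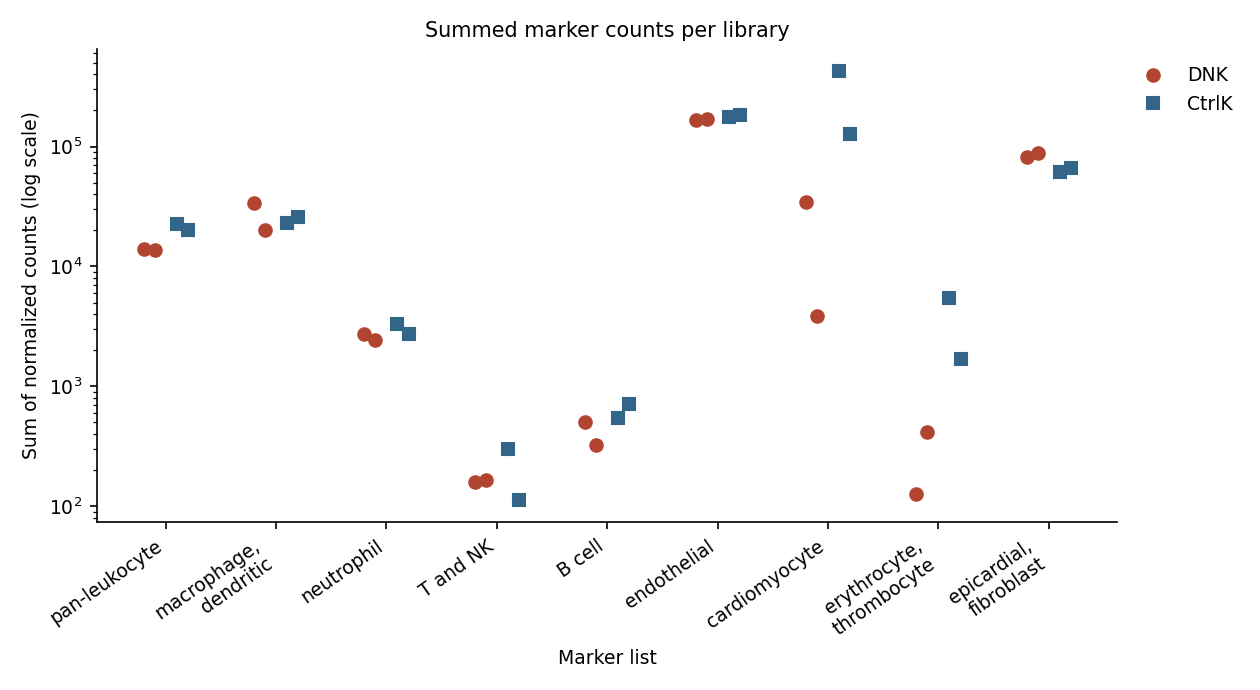
Sum of normalized counts (log axis) over each of the 9 marker lists in each library, with DNK as circles and CtrlK as squares. Both DNK libraries lie above both CtrlK libraries for the epicardial and fibroblast list, the groups overlap for the macrophage and dendritic and the T and NK lists, and both DNK libraries lie below for the other 6. The neutrophil sum is nearly all *nccrp1*.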

How the data were processed

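RNA-seq was performed on 4 libraries of sorted heart endothelial cells. The authors deposited raw counts of uniquely mapped reads per Ensembl gene, made with FastQC 0.11.9, HISAT2 2.2.1 on GRCz11 and featureCounts 2.0.1 (Ensembl release 103), and their strand setting is not given in the sources used here, so genes that overlap on opposite strands are uncertain. The deposited tables of DNK carry other initials than the labels, and the labels were followed. Symbols came from a table of identifiers, with *tap1* and *psmb9a* from human-style symbols with 1 copy. *psmb8a* came from the study's symbol list, which the paper cites for its genes that differed between the groups. Some genes of the pathway and marker lists came from that list too, and it was also open to the reference gene order. Such a match can favour called genes, which limits any comparison of called shares with all tested genes.

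Counts were filtered with filterByExpr in place of the study's FPKM filter, scaled with TMM and tested with edgeR 4.0.16 (R 4.3.3; quasi-likelihood F-test, robust, two-sided, group only), with Benjamini-Hochberg adjustment over 17151 genes. The script was tested on simulated data. Standard errors are of the log2 fold change. DESeq2 1.42.0 and the settings in the closing section were alternatives. The 9 genes and all lists were chosen with earlier results of these data known. Named genes were the 9 genes, pathway genes past an adjusted p of 0.05, 8 regulators and markers, called neighbours within 10 genes, and the 3 genes nearest in pattern to *mhc1uba* and *mhc2dab*; others, among them further MHC and marker genes, were named after their values were seen. RefSeq gave gene order only, from another assembly than GRCz11. As an exception to that rule, one called gene of the regulator list is counted but not reported here.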

Additional observations from a re-analysis of the deposited data

How the results depend on the processing

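The 9 described genes kept their direction under every setting that gave them a value, except *cd74a*. A minimum of 10 counts in every library removed *mhc1uba* and *mhc2dab*, so that 1 rather than 3 of the 9 had a log2 fold change of at least 1, and asking for 0 counts in the other group left 1 rather than 2 present in one group only. With DESeq2 the calls were 18 of the other pathway genes (9 with edgeR), 13 neighbours (8), 34 markers (21) and 2703 of all genes (1449). Without the filter on low counts they were 17, 15, 38 and 3090. At an adjusted p under 0.01 there were 4 neighbours, 7 markers and 494 of all genes. Leaving out one library gave 6 to 9 pathway genes, 4 to 8 neighbours, 10 to 18 markers and 712 to 979 of all genes, with the lone library of a group assumed to vary like the other group. RLE and upper-quartile scaling kept all counts within 1.5 times. With the replicate number as a block there were 10 pathway genes, 8 neighbours, 22 markers and 1642 of all genes; same-numbered libraries came from different fish and their deviations correlated at 0.09 over 17151 genes, so the numbers were not taken as pairs.

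Depth was not the limit for *mhc1uba* and *mhc2dab*, while genes near 50 counts, such as *mhc2bl*, stood at the edge of the definition of presence in one group only. With 2 libraries in each group, a p that missed the threshold does not show that levels did not differ.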
